A study of Mus musculus with 12 samples.

Results

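The platelet-derived growth factor (PDGF) family in the mouse consists of 4 ligand genes, Pdgfa, Pdgfb, Pdgfc and Pdgfd, and 2 receptor genes, Pdgfra and Pdgfrb. These 6 genes were selected by symbol from 54367 genes measured by poly(A) RNA sequencing of the retina after laser photocoagulation, and all 6 were found in both tables of values, 1 for day 3 and 1 for day 7. None of the PDGF genes above the minimum level set for testing (4 on day 3, 5 on day 7) passed the test for a difference between lasered and control retinas, and in each of the 6 the lasered and control libraries overlapped on both days. Their levels, by contrast, stood in a different order in the day 3 and day 7 tables, with Pdgfd the highest of the 6 in the first and the lowest in the second. The tables were normalized separately, and large gaps between them were common among protein-coding genes, so day and table cannot be told apart.

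The animals were wildtype C57BL/6 mice aged 8 to 12 weeks, anaesthetised with chloral hydrate. The right eye was burned at 4 clock positions with a 532 nm laser (75 µm spots, 0.1 s), and the left eye of the same animal was left without laser as the control. Retinas were taken 3 or 7 days later, which gave 4 groups of 3 libraries: day 3 control, day 3 laser, day 7 control and day 7 laser. The labels do not say whether a library held 1 retina or a pool, nor that libraries with equal numbers came from 1 mouse, so the p-values measure the spread between these libraries. A whole lasered retina holds burned and intact tissue together, and in such bulk samples fewer cells of a type and less RNA per cell cannot be told apart.

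PDGF ligands are secreted dimers. PDGF-A and PDGF-B are made in a form that is cleaved inside the cell, whereas PDGF-C and PDGF-D carry a CUB domain that has to be cut off outside the cell before they can bind. PDGFR-alpha and PDGFR-beta are class III receptor tyrosine kinases that pair and phosphorylate each other when a ligand dimer binds. In the retina, neurons make PDGF-A, which drives the spread of Pdgfra-expressing astrocytes during development, and endothelial cells make PDGF-B, which recruits and keeps Pdgfrb-expressing pericytes on the capillaries.

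In the mm10 (GRCm38) build the ligand genes lay on 4 chromosomes. Pdgfa (ENSMUSG00000025856) spans chr5:138976014-138997370 on the minus strand, Pdgfb (ENSMUSG00000000489) chr15:79995874-80014977 on the minus strand, Pdgfc (ENSMUSG00000028019) chr3:81036416-81214040 on the plus strand, and Pdgfd (ENSMUSG00000032006) chr9:6168584-6378850 on the plus strand. The receptor gene Pdgfra (ENSMUSG00000029231) is at chr5:75152292-75198215 on the plus strand, and the place of Pdgfrb is given with its values.

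The base composition of these genes is shown because the levels in the day 3 and day 7 tables differed by it, as described further on. The exons of Pdgfd had the lowest share of G and C of the 6 genes, 40.2%, and those of Pdgfb the highest, 59.7%. Between them stood Pdgfc at 46.1%, Pdgfra at 49.2%, Pdgfrb at 55.0% and Pdgfa at 57.1%. A coding stretch of 90 bases from each extreme follows, with G and C in capitals, taken in frame from a single exon as the first whose GC share is nearest to that of the whole coding sequence in GENCODE M21. The Pdgfb stretch is from exon 4 of 7 of transcript Pdgfb-201 (chr15:80001793-80001882, minus strand), and the Pdgfd stretch from exon 2 of 7 of Pdgfd-202 (chr9:6288576-6288665, plus strand).
Pdgfb: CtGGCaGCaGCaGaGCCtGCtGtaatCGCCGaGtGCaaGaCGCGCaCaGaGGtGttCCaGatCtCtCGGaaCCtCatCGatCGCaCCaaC
Pdgfd: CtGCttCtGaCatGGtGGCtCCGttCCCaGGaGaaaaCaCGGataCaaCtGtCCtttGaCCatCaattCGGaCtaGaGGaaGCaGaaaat
The GC share was 58.9% in the Pdgfb stretch and 47.8% in the Pdgfd stretch. In Pdgfb the coding sequence (59.4%) and all exons together were nearly alike, whereas in Pdgfd the coding sequence (48.1%) was richer in G and C than the exons as a whole, which include the untranslated ends.

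Values are the deposited signal per gene, scaled for gene length and library and named TPM, a transcript abundance unit, by the authors. Within a table, levels of different genes are set side by side as scaled for length. They were not adjusted for base composition, by which the 2 tables differed, so an order of genes of unlike GC content holds for the deposited values only. On day 3 a library held 9282013 to 12515844 reads assigned to genes, and on day 7 it held 23886219 to 31092913, and 3 reads in a gene of 1 kb corresponded to 0.428 to 0.612 on day 3 and 0.291 to 0.365 on day 7. The tissue label was met by its markers: 8 genes of Müller glia, the radial glia of the retina, summed to between 1390 and 1585 in the day 3 controls and between 5229 and 5446 in the day 7 controls. Day 3 laser library 1 stood apart from the rest, with a summed level of 8 monocyte and macrophage markers of 1989 against 204 and 272 in the other lasered libraries, and a summed level of 6 platelet markers of 422 against 4.06 and 6.03. Nearly all of that platelet sum was Pf4 (376) and Ppbp (43.8). Itga2b (1.91) was also higher there than in the other lasered libraries, Gp9 (0) and Gp1ba (0.149) were lower, and Gp1bb had 1 read in each. Day 7 laser library 2 stood apart in base composition: its log2 values relative to the 6 libraries of its day fell by 0.66 per 10 percentage points of exon GC, against slopes between -0.21 and 0.32 in the other 5. Where leaving out the library that stands apart on its day turned the direction of a PDGF gene's laser effect on that day or moved it by more than 1.5 times, the value without it is given too.

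Pdgfa encodes the A chain, a ligand of PDGFR-alpha. On day 3 its value was 1.27, 1.16 and 1.98 in the controls and 4.61, 1.90 and 1.02 after laser. The lasered group held both the highest and the lowest of the 6 libraries, and the groups overlapped. The mean was 1.47 ± 0.448 in controls and 2.51 ± 1.87 after laser (SD, n = 3 each). On the log2(value + 1) scale used for all differences here, that was 0.39 higher (SE 0.37, 95% interval -0.49 to 1.27, limma adjusted p = 0.571). The high value of 4.61 (71 reads) came from laser library 1, in which the summed platelet and macrophage markers were also highest. The platelet sum there was nearly all Pf4 and Ppbp. Without that library the difference was -0.016, so its direction rested on 1 library. Platelets store PDGF, and the part of platelet RNA in the Pdgfa value was not tested.

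On day 7 Pdgfa was at 5.87, 6.30 and 5.04 in the controls and at 4.31, 9.48 and 4.51 after laser. The single high value was that of laser library 2, while the other lasered libraries lay below all controls. The GC slope of that library was negative, and the exons of Pdgfa had 57.1% GC. The part of base composition in this value was not tested. The difference over all 6 libraries was 0.01 (SE 0.31, 95% interval -0.72 to 0.73, limma adjusted p = 1.00). It was -0.31 without laser library 2.

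Pdgfb encodes the B chain, which binds both receptors and is the endothelial signal to pericytes. On day 3 it was barely detected: the controls gave 0.111, 0.112 and 0.0478, from 3, 3 and 1 reads, and the lasered retinas 0.145, 0.307 and 0.0442, from 3, 9 and 1 reads. The gene stayed under the minimum mean value of 1 set for testing, and with so few reads a difference was not detectable at this depth. On day 7 it was well above that limit, at 3.75, 5.33 and 2.61 in the controls and 3.10, 1.33 and 3.64 after laser. The groups overlapped, and the lowest value was that of laser library 2. The means were 3.90 ± 1.37 and 2.69 ± 1.21 (SD, n = 3 each), a difference of -0.43 (SE 0.35, 95% interval -1.26 to 0.39, limma adjusted p = 1.00). Without laser library 2 it was -0.13.

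Pdgfc encodes a CUB-domain ligand that acts mainly through PDGFR-alpha. On day 3 its values were 0.436, 0.824 and 0.659 in controls and 0.454, 0.523 and 0.514 in lasered retinas, from 12 to 28 reads a library. All 3 lasered values fell inside the control range, and the mean was under the minimum of 1. Tested without that minimum, the difference was -0.12 (SE 0.15, limma adjusted p = 0.702). On day 7 the controls read 0.752, 1.33 and 1.02 and the lasered retinas 0.828, 1.71 and 1.10. The highest library of each group was number 2, and the groups overlapped over most of their range. The difference was 0.11 (SE 0.27, 95% interval -0.51 to 0.74, limma adjusted p = 1.00), and it turned to -0.045 without laser library 2.

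Pdgfd encodes the other CUB-domain ligand, which acts through PDGFR-beta. On day 3 it was the highest of the family, at 10.6, 10.3 and 9.73 in the controls and 6.37, 9.00 and 9.998 after laser, from 100 to 219 reads. The 3 controls lay close together, and 2 of the lasered libraries lay below all of them, with library 1 lowest. The means were 10.2 ± 0.447 and 8.46 ± 1.87 (SD, n = 3 each), a difference of -0.26 (SE 0.18, 95% interval -0.69 to 0.16, limma adjusted p = 0.411). Without laser library 1 it was -0.094. On day 7 the same gene gave 0.102, 0.324 and 0.120 in the controls and 0.387, 0.973 and 0.0973 after laser, from 3 to 26 reads. Of the 6 libraries 3 held only 3 reads, laser libraries 1 and 2 held 12 and 26, and the groups overlapped. The mean was under the minimum of 1, and tested without it the difference was 0.29 (SE 0.22, limma adjusted p = 1.00).

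Pdgfra encodes PDGFR-alpha, which in the retina marks astrocytes and, in other neural tissue, oligodendrocyte precursors. On day 3 it was at 1.28, 1.08 and 1.42 in the controls and 0.576, 1.49 and 1.25 after laser. Laser library 1 was the only low value, and the other lasered libraries lay at the level of the controls. The difference was -0.12 (SE 0.24, 95% interval -0.68 to 0.43, limma adjusted p = 0.792), and 0.071 without laser library 1. On day 7 Pdgfra spread widely within each group, at 0.856, 2.74 and 1.13 in the controls and 0.904, 3.77 and 2.15 after laser. The libraries numbered 2 were highest in both groups, and they were also the libraries with a negative GC slope (-0.21 and -0.66 per 10 points). The difference was 0.32 (SE 0.42, 95% interval -0.68 to 1.31, limma adjusted p = 1.00), -0.0047 without laser library 2, and 0.22 with the GC trend of each library removed.

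Pdgfrb (ENSMUSG00000024620, chr18:61045150-61085061, plus strand) encodes PDGFR-beta, the defining receptor of pericytes. On day 3 its value was 1.81, 1.41 and 2.53 in the controls and 2.80, 1.96 and 1.24 after laser. The lasered libraries again spanned the whole range of the controls and beyond it at both ends. The difference was 0.03 (SE 0.26, 95% interval -0.58 to 0.63, limma adjusted p = 0.964), and -0.16 without laser library 1. On day 7 Pdgfrb was the most abundant of the 6, at 14.7, 12.7 and 16.5 in the controls and 17.1, 14.2 and 18.2 after laser, from 619 to 1064 reads. This was the most precise measurement of the family on that day, and the groups still overlapped. The means were 14.7 ± 1.90 and 16.5 ± 2.05 (SD, n = 3 each), a difference of 0.16 (SE 0.18, 95% interval -0.27 to 0.59, limma adjusted p = 1.00), or 0.26 without laser library 2. Set beside the control of the same number, the lasered library was higher in 3 of 3 pairs for Pdgfrb, and likewise for Pdgfra and Pdgfc. With the number as a block none of these 3 genes passed (limma adjusted p = 0.811, 0.796 and 0.921). In Pdgfa, Pdgfb and Pdgfd the day 7 pairs went both ways. How many of all genes were higher in 3 of 3 pairs was not counted, and the labels do not tie numbers to mice.

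**Figure D1:**
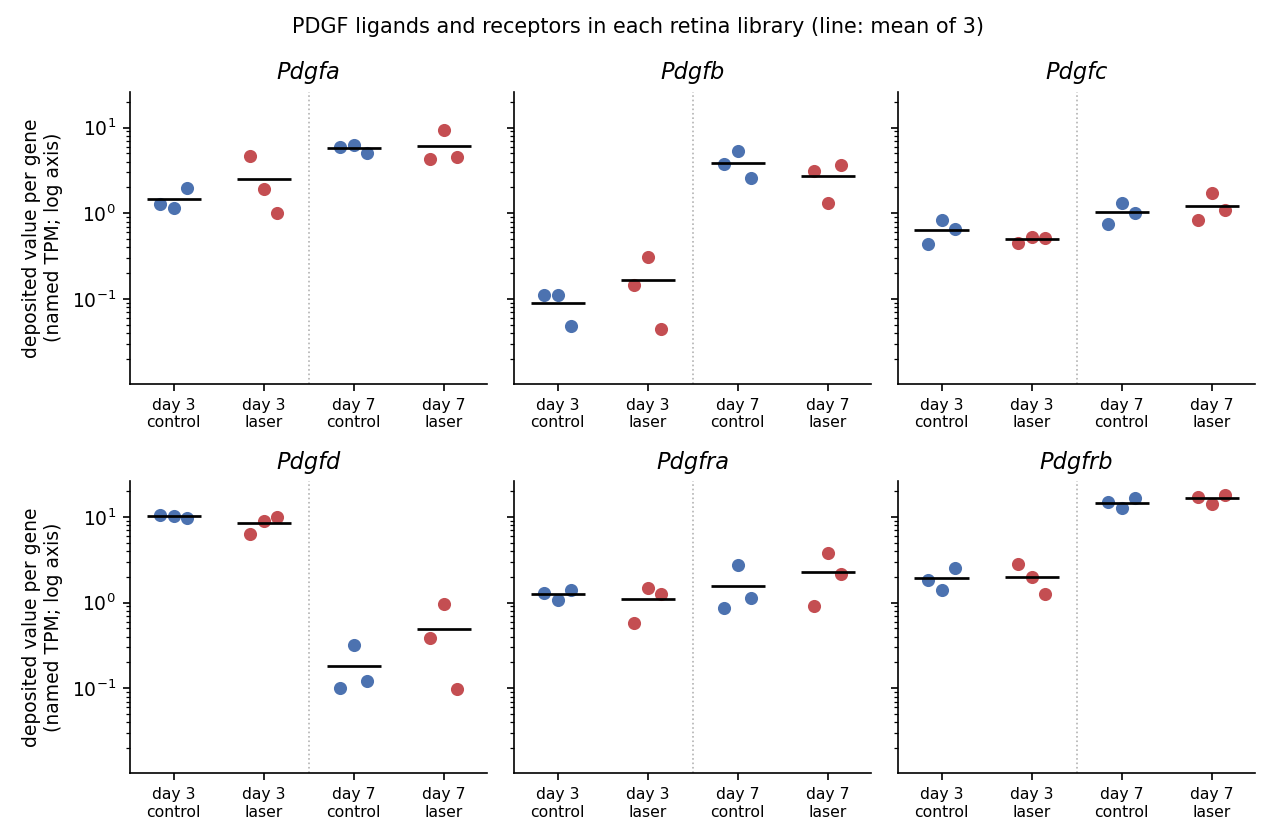
Deposited value of each PDGF gene in each library (log axis, named TPM by the authors), for control (blue) and lasered (red) retinas on days 3 and 7; points from left to right are libraries 1, 2 and 3, the line is their mean, and the dotted line parts the separately normalized tables. Red and blue points overlap in every gene on both days, while Pdgfb and Pdgfrb are higher and Pdgfd lower in the day 7 table.

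In all, 0 of the 4 PDGF genes tested on day 3 passed an adjusted p of 0.05, where 0.149% of the 16786 genes tested did (0.143% higher after laser and 0.00596% lower). On day 7 it was 0 of 5, against 0.244% of 15592 genes (0.237% higher and 0.00641% lower). Few genes were called in all, so looser criteria were counted as well. At an unadjusted p under 0.05 in limma, 0 of 4 on day 3 were higher after laser, against 20.7% of all genes, and 0 were lower, against 2.29%. On day 7, 0 of 5 were higher, against 3.14%, and 0 lower, against 0.795%. Lasered libraries lay wholly above the controls in 0 of the 4 genes tested on day 3, against 27.7% of all genes, and wholly below in 0, against 3.82%. The same counts on day 7 were 0 of 5 against 6.78% and 0 of 5 against 2.11%. The median difference of the PDGF genes tested was -0.05 on day 3 and 0.11 on day 7, beside 0.16 and 0.06 over all genes tested.

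**Figure D2:**
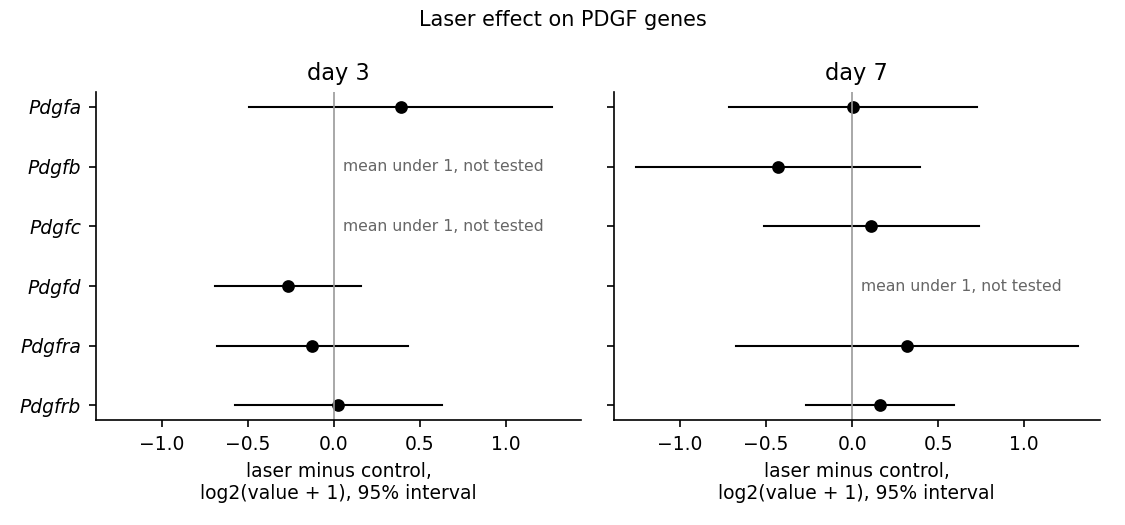
Difference between lasered and control retinas on the log2(value + 1) scale, with its 95% interval from limma, for each PDGF gene on day 3 (left) and day 7 (right). Every interval crosses 0; the narrowest on day 3 is that of Pdgfd (-0.69 to 0.16) and on day 7 that of Pdgfrb (-0.27 to 0.59).

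The intervals say how large a difference could have gone unseen. For Pdgfrb on day 7 a rise above 0.59 or a fall beyond -0.27 lay outside the interval, whereas for Pdgfra on the same day the interval reached from -0.68 to 1.31. The day 3 interval of Pdgfa reached 1.27, and that of Pdgfd on day 3 ended at 0.16.

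Whether the laser effect differed between the days was tested in 1 model of all 12 libraries. Of 5 PDGF genes tested, 0 passed, and over 17611 genes 0.00% did. The estimate for day 7 minus day 3 was -0.38 for Pdgfa (SE 0.50, limma adjusted p = 0.922), -0.52 for Pdgfb (SE 0.39, limma adjusted p = 0.745) and 0.56 for Pdgfd (SE 0.33, limma adjusted p = 0.658). Pdgfb and Pdgfd reached the minimum mean only through the day on which they were high. Pdgfb on day 3 had 1 to 9 reads a library and Pdgfd on day 7 had 3 to 26. With so few reads on 1 of the days, these 2 estimates cannot show whether the laser effect differed. Without day 3 laser library 1 the estimate for Pdgfa was 0.022. Without day 7 laser library 2 it was -0.22 for Pdgfb, 0.33 for Pdgfd and 0.12 for Pdgfra. Over all libraries it was 0.44 for Pdgfra (SE 0.49, limma adjusted p = 0.880) and 0.13 for Pdgfrb (SE 0.32, limma adjusted p = 0.973), the latter 0.32 without day 3 laser library 1. These are not all the estimates that moved. That of Pdgfra became smaller without day 3 laser library 1, and those of Pdgfa and Pdgfrb became larger in size without day 7 laser library 2. At an unadjusted p under 0.05 in limma 0 of the 5 passed, against 0.960% of all genes with a larger and 8.43% with a smaller effect on day 7.

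Within the day 3 table the order of control levels was Pdgfd, Pdgfrb, Pdgfa, Pdgfra, Pdgfc and Pdgfb. This order and that of day 7 set genes of unlike exon GC content side by side, without adjustment for it. Pdgfd alone made up 65.5% of the summed mean of the 6 genes, and its lowest control lay above the highest Pdgfrb control. Pdgfrb (1.91 ± 0.565), Pdgfa and Pdgfra (1.26 ± 0.172) overlapped as neighbours, Pdgfc (0.640 ± 0.195) lay apart below Pdgfra, and Pdgfb (0.0903 ± 0.0368) lay apart below Pdgfc (SD, n = 3 each). The order after laser was the same except that Pdgfa and Pdgfrb, which overlapped, changed places.

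Within the day 7 table Pdgfrb led the controls with 54.1% of the summed mean and lay apart from the next gene, Pdgfa (5.74 ± 0.642). Pdgfa and Pdgfb overlapped, as did Pdgfb and Pdgfra (1.58 ± 1.02), and Pdgfra and Pdgfc (1.03 ± 0.291). Pdgfd (0.182 ± 0.123) was last and lay apart, at 0.671% of the sum (SD, n = 3 each). The order of means after laser was the same. The summed level of the 6 genes was 14.9 to 16.4 in controls and 14.1 to 15.2 after laser on day 3. On day 7 it was 26.1 to 28.8 in controls and 26.6 to 31.5 after laser, so the groups overlapped on both days.

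The tables of the 2 days were normalized separately and their libraries differ in depth, so day and table cannot be told apart, and the levels across them were not tested. The log2 difference of control means, day 7 minus day 3, was -3.24 for Pdgfd and 0.19 for Pdgfra. It was 0.31 for Pdgfc, 1.45 for Pdgfa, 2.17 for Pdgfb and 2.43 for Pdgfrb. Such gaps were common: 38.9% of 12766 protein-coding genes differed by at least 2 in either direction, and across these genes, which are not independent replicates, the difference went with exon GC content (Pearson r = 0.74, a description).

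The PDGF genes were then set beside genes of like GC content. The median difference was -1.96 in the decile of genes with the lowest GC, which holds Pdgfd, and 3.61 in the decile with the highest, which holds Pdgfb. Pdgfd lay below the middle range of its decile (quartiles -2.77 and -1.16) and Pdgfb just below that of its own (2.32 and 4.60). Pdgfa, at 1.45, was at the lower quartile of its decile (1.44 to 3.72). Pdgfra, at 0.19, was just above the lower quartile of its decile (0.14 to 1.90), and Pdgfc (-0.93 to 0.62) and Pdgfrb (0.95 to 3.25) lay inside theirs, above the medians. Only Pdgfd and Pdgfb were below the lower quartile, and part of every decile lies there by definition. The place of Pdgfb was fixed by its level. With a day 7 control mean of 3.90 and 1 added to each mean, its difference could not reach the lower quartile. Its day 3 control mean, 0.0903, was near the floor. The part of base composition in these gaps was not tested.

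**Figure D3:**
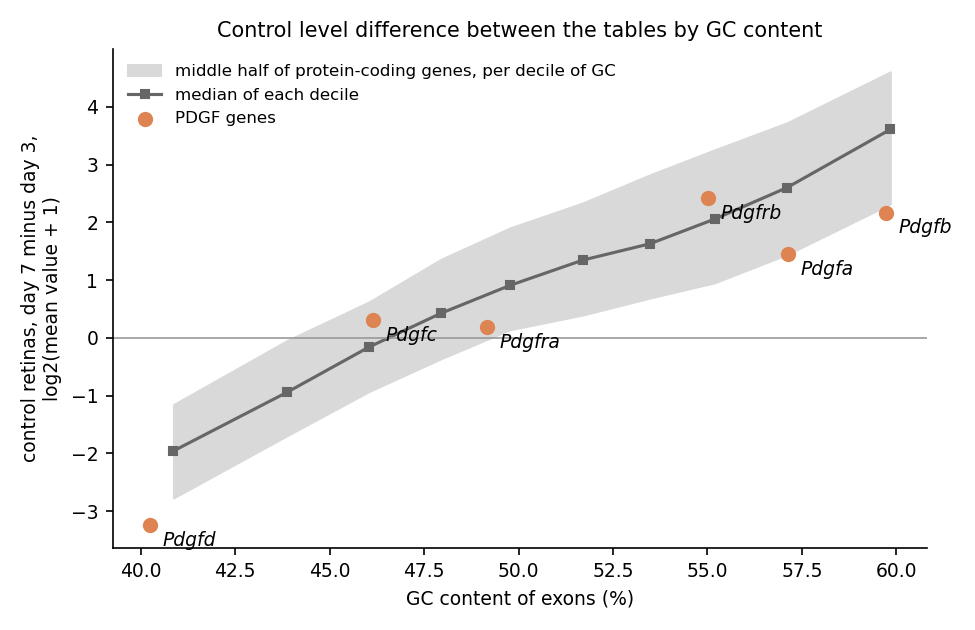
Difference of control means between the tables, day 7 minus day 3, on the log2(mean value + 1) scale (vertical) against exon GC content in percent (horizontal); squares are medians of deciles of 12766 protein-coding genes by GC, the band spans their quartiles, and orange points are the PDGF genes. The medians climb from -1.96 to 3.61; Pdgfd lies lowest at -3.24 and Pdgfrb highest at 2.43, while Pdgfa and Pdgfb, with the highest GC, lie at 1.45 and 2.17, near or below the band's lower edge.

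Of the genes that act with the family, 42 in 4 lists were followed. Ligand processing and binding held 9 genes, among them proteases that activate ligands and proteins that bind them. Of its 6 genes tested on day 3, 0 passed the adjusted test, 5 were higher at an unadjusted p under 0.05 in limma (20.7% of all genes were), and the median difference was 0.85, beside 0.16 over all genes. On day 7, 0 of 7 passed, 4 were higher at the unadjusted level (3.14% of all genes were), and the median was 0.52, beside 0.06.

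A2m encodes alpha-2-macroglobulin, a protease trap that binds PDGF. It was at 3.13, 3.85 and 3.73 in the day 3 controls and at 46.1, 16.2 and 24.8 after laser. All lasered libraries lay above all controls, with library 1 highest, and the difference was 2.59 (SE 0.34, limma adjusted p = 0.0633). It was called under 7 of 18 alternative settings (limma adjusted p 0.00617 to 0.301), among them without laser library 1 (2.21) and without laser library 2 (2.94). On day 7 the controls were at 3.282, 7.04 and 4.87 and the lasered retinas at 10.3, 20.5 and 15.6, again without overlap, a difference of 1.44 (SE 0.33, limma adjusted p = 0.352). It passed under 3 of 18 alternative settings (limma adjusted p 0.0219 to 1.00), those with the replicate number as a block, with the GC trend removed and with both.

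Sparc encodes a matrix protein that binds PDGF-B and keeps it from its receptor. On day 3 it averaged 165 ± 34.1 in controls and 340.5 ± 46.8 after laser, and on day 7 236 ± 9.14 and 360 ± 42.6 (SD, n = 3 each). Lasered libraries lay above all controls on both days. The differences were 1.05 (SE 0.19, limma adjusted p = 0.0883) and 0.60 (SE 0.13, limma adjusted p = 0.346), so neither passed. The first did pass without laser library 1 (1.16), with library weights (1.18) and in the joint fit of 12 libraries (1.05). Plat, the tissue plasminogen activator that cuts PDGF-C into its active form, was at 5.62 ± 0.966 and 12.9 ± 3.21 on day 3 (SD, n = 3 each), a difference of 1.05 (SE 0.21, limma adjusted p = 0.0915). Plat passed on day 3 in the joint fit of 12 libraries. It is named outside the rule for listed genes, after its values were seen, because it acts on a family member.

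Receptor-proximal signalling held 15 adaptors and enzymes that dock on the activated receptors, such as Grb2, Shc1, Plcg1 and Pik3r1. On day 3, 0 of 14 tested passed and 5 were higher at an unadjusted p under 0.05 in limma, against 20.7% of all genes, with a median of 0.37. On day 7, 0 of 15 passed, 1 was higher at that level, against 3.14% of all genes, and the median was 0.13. Shc1, an adaptor that links receptors to Ras, had the smallest p of the list, with a day 3 difference of 0.64 (SE 0.20, limma adjusted p = 0.134). Nck1, an adaptor to the cytoskeleton, followed with 0.79 on day 3 (SE 0.25, limma adjusted p = 0.135).

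Receptor attenuation held 10 genes for ubiquitin ligases, phosphatases and feedback inhibitors. On day 3, 0 of 7 tested passed and 3 were higher at an unadjusted p under 0.05 in limma (median 0.40), against 20.7% of all genes. On day 7, 0 of 10 passed and 1 was higher (median 0.09), against 3.14%. Socs3, a feedback inhibitor of cytokine receptors, was at 8.36, 5.16 and 5.32 in the day 7 controls and 21.1, 10.4 and 22.4 after laser. The groups did not overlap, and the difference was 1.34 (SE 0.33, limma adjusted p = 0.446). Ptpn1, a phosphatase that acts on PDGF receptors, had a day 3 difference of 1.34 (SE 0.40, limma adjusted p = 0.123), with laser library 1 at 20.5 and the others at 7.57 and 6.23. Without library 1 it was 0.86, and it passed in the joint fit of 12 libraries (limma adjusted p = 0.0351).

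The other class III receptor kinases and their ligands, 8 genes, gave the only call among the 42. Csf1r, the receptor of colony-stimulating factor 1 on microglia and macrophages and a relative of the PDGF receptors, was at 13.7, 12.6 and 14.2 in the day 7 controls and at 29.1, 35.8 and 39.4 after laser. It rose by 1.29 (SE 0.17, limma adjusted p = 0.0444), in all 3 lasered libraries. The call was narrow: it held under 8 of 18 alternative settings (limma adjusted p 0.0141 to 0.366), and was lost when any single library was left out and with median-of-ratios or quantile scaling. On day 3 its difference was 1.18 (SE 0.20, limma adjusted p = 0.0883), and it passed with library weights and in the joint fit of 12 libraries (limma adjusted p = 0.0396 and 0.0105). Over the list, 0 of 5 tested passed on day 3 (median 0.95) and 1 of 7 on day 7 (median 0.27). As a sum, microglial markers moved with it. On day 7 the summed level of 8 such genes was 74.4 to 84.6 in controls and 209 to 247 after laser, and Fcrls (2.27, limma adjusted p = 0.0189) and C1qa (1.90, limma adjusted p = 0.0202) rose. On day 3 the microglial sum was 31.0 to 32.3 in controls and 67.1 to 96.2 after laser, and Fcrls was the 1 gene of 7 that passed (2.97, limma adjusted p = 0.0450). These calls held under 12 of 18 alternative settings for Fcrls and 9 for C1qa on day 7, and under 7 for Fcrls on day 3. Not every microglial marker rose. On day 3, 5 of the 7 tested were higher, with P2ry12 at -0.40 (SE 0.40) and Siglech at -0.01 (SE 0.44). On day 7 all 7 tested were higher, and P2ry12, under the minimum mean, averaged 0.248 in controls and 0.147 after laser. The part of cell number in the Csf1r difference was not tested.

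**Figure D4:**
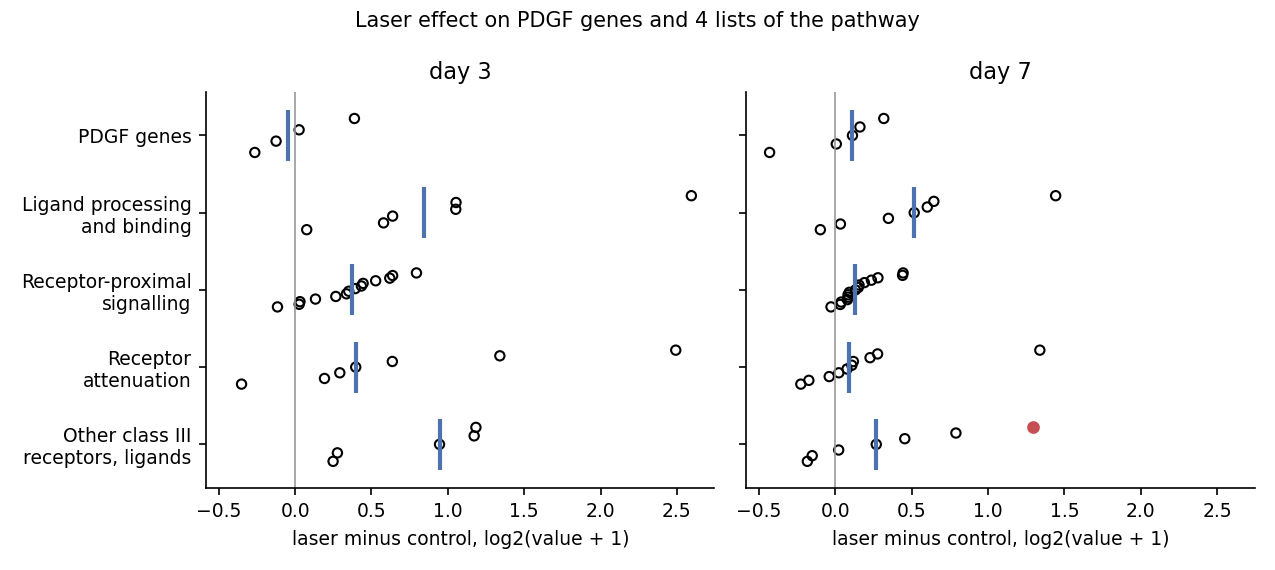
Difference between lasered and control retinas on the log2(value + 1) scale for each tested gene (circles) of the PDGF family and of 4 pathway lists, on day 3 (left) and day 7 (right); blue bars are list medians and the filled red circle is the only gene past an adjusted p of 0.05 in limma, Csf1r on day 7. The PDGF medians are -0.05 and 0.11, those of ligand processing and binding 0.85 and 0.52.

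The cells that carry or feed these receptors were followed by their markers. Of 10 pericyte markers, 0 of 4 tested passed on day 3, 3 were higher at an unadjusted p under 0.05 in limma (20.7% of all genes were), and the summed level was 7.14 to 10.3 in controls and 14.3 to 23.1 after laser. Ndufa4l2 and Mcam, the pericyte genes with the smallest p, differed by 0.96 (SE 0.20) and 1.02 (SE 0.22), each with a limma adjusted p of 0.0915. Ndufa4l2 rested on 7 to 23 reads a library. Of the other pericyte genes tested, Rgs5 differed by 0.84 (SE 0.32) and Higd1b by 0.02 (SE 0.31). The difference of Pdgfrb in the same libraries was 0.03. On day 7 the pericyte sum was 25.4 to 36.4 in controls and 27.4 to 37.5 after laser, and 0 of 7 passed. Of these 7, 2 were higher after laser, the median was -0.14, and Higd1b was at -0.79 (SE 0.32).

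Endothelial cells are a source of PDGF-B. On day 3, 0 of 6 tested markers passed (median 0.50), and on day 7, 0 of 8 (median -0.38). Plvap and Cldn5 had the smallest p, with day 3 differences of 0.95 (SE 0.22, limma adjusted p = 0.0938) and 1.203 (SE 0.38, limma adjusted p = 0.132). On day 7 the endothelial sum was 138, 112 and 83.5 in controls and 93.0, 58.8 and 109 after laser. It was lowest in laser library 2, where Pdgfb was lowest too. Smooth muscle markers gave 0 calls of 4 on day 3 (median 0.59) and 0 of 3 on day 7 (median -0.32), with Acta2 at -0.63 (SE 0.26, limma adjusted p = 1.00) on day 7 and Mylk at -0.47 (SE 0.21, limma adjusted p = 0.228) on day 3.

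Astrocytes are the main carriers of Pdgfra in the retina. Of 4 astrocyte genes tested, Gfap, an intermediate filament that Müller glia also make after injury, rose by 4.45 on day 3 (SE 0.54, limma adjusted p = 0.0450) and by 2.40 on day 7 (SE 0.30, limma adjusted p = 0.0419), calls that held under 8 and 10 of 18 alternative settings. Pax2, which marks astrocytes but not Müller glia, was listed at 0 in all day 3 controls and in 2 of the 3 day 3 lasered libraries, and at 0.234 to 0.781 on day 7. The other astrocyte genes tested on day 3 went both ways, and none passed. Aldh1l1 was at 1.45 (SE 0.19), Ednrb at 1.32 (SE 0.83) and S100b at -0.32 (SE 0.30). Ednrb was at 45.9 in laser library 1 and at 3.73 and 3.69 in the others. On day 7 all 4 genes tested were higher after laser (median 0.41). Beside these, the differences of Pdgfra were -0.12 on day 3 and 0.32 on day 7. Of 8 oligodendrocyte lineage markers only 2 were tested on each day and 0 passed, with Mbp at 0.21 (SE 0.19, limma adjusted p = 0.547) on day 3 and Sox10 at -0.21 (SE 0.43, limma adjusted p = 1.00) on day 7.

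Macrophages and platelets can also supply PDGF. On day 7 Lyz2 rose by 3.92 (SE 0.27, limma adjusted p = 0.00444) and Cd68 by 1.62 (SE 0.17, limma adjusted p = 0.0202), calls that held under 15 and 10 of 18 alternative settings. The monocyte and macrophage sum was 15.3 to 29.6 in the controls of that day and 100.4 to 141 after laser, while 0 of the 3 PDGF ligands tested that day passed. On day 3, 0 of 7 of these markers passed, though all 7 were higher after laser (median 2.74). At an unadjusted p under 0.05 in limma 5 were higher, against 20.7% of all genes. The sum was 38.8 to 44.4 in controls and 204 to 1989 after laser, highest in library 1. Among platelet markers Pf4 was at 376, 2.46 and 4.41 in the day 3 lasered libraries and at 0.286 to 0.628 in controls, and Ppbp at 43.8, 0.275 and 0.170 against 0.134 to 0.555. Neither passed (limma adjusted p = 0.222 and 0.486), and nearly all of the signal was in library 1. On day 7 Ppbp was listed at 0 in all 6 libraries.

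Fibroblast markers of the sclera, choroid and vessels, cells that express both receptors, summed to 1.21 to 2.01 in day 3 controls and 0.656 to 10.2 after laser, with 0 calls of 2. On day 7 the sum was 5.61 to 26.2 in controls and 6.91 to 18.1 after laser, with 0 calls of 1. Most of that sum was Fbln1, at 24.5, 3.60 and 6.26 in controls and 5.45, 7.62 and 14.7 after laser. The other fibroblast genes were under the minimum mean that day. Pigment epithelium genes, which show tissue carried over from behind the retina, summed to 271 to 417 in day 3 controls and 45.1 to 569 after laser, with 0 calls of 5, and on day 7 to 256 to 630 and 340 to 686, with 0 calls of 4. Also followed were Müller glia (0 of 8 on both days, medians 0.46 and 0.41) and ganglion cells (0 of 7 and 0 of 8, medians 0.18 and -0.14).

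For the 3 PDGF genes with a mean of at least 1 on both days, the genes with the most similar pattern were sought among 10647 named genes, by Pearson correlation over the 12 libraries after the mean of each day was taken out. Pdgfa was most like Abcb10 (0.95), Homez (0.95) and Rps15a-ps6 (0.93). Pdgfra was most like Smyd4 (0.97), Klhl23 (0.97) and Bbs12 (0.96). Pdgfrb was most like Trappc10 (0.92), Kdm4a (0.92) and Rgp1 (0.91). These are the highest of many correlations among libraries that share depth and base composition within a day, and they are given as a description.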

How the data were processed

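Poly(A) RNA of 12 retina libraries was sequenced from a directional kit, per the labels' protocols. The submitters' processing notes list STAR 2.7.0, edgeR 3.28.0 and mm10 and give them no role. The read counter, its strand setting and the annotation release remain not given in the sources used here. Each day has 1 table, in which the authors deposited a signal per gene that they named TPM. Column sums of this deposited signal ran from 961549 to 1045986 on day 3 and from 953049 to 1039002 on day 7. They became 1000000 in every library once a divisor that cycles over 6 values along the genes was undone (factors 0.915 to 1.09 over both days), so a deposited value can be off by up to about that factor. Multiplying by GENCODE M21 exon length (same start and end for 53681 of 54367 genes) gave reads that were whole within 0.05 in 99.7 to 99.8% of values under 20 reads.

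Groups came from the sample titles. Within each day, genes with a mean of at least 1 were compared on log2(value + 1) with limma 3.58.1 in R 4.3.3 (trended prior, 2-sided, Benjamini-Hochberg over all genes tested, threshold 0.05), so differences of low genes are understated. A model of all 12 libraries tested the difference between days. The smallest p of an exact permutation test of 3 against 3 would be 0.1, so none was run. The scripts were tested on simulated data. Equal replicate numbers went together on day 7 (correlation of deviations from group means 0.485, 0.559 and 0.128) but not on day 3 (0.041, 0.016 and 0.077); the labels do not tie numbers to mice. Named genes were the PDGF genes, listed genes past the threshold and otherwise the 2 of a list with the smallest p. The members and lists were chosen with earlier results of these data known. Protein sequences were not used here. The result of 1 marker list is not reported here.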

Additional observations from a re-analysis of the deposited data

How the results depend on the processing

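Of 266 differences of PDGF genes recomputed under other settings, 239 kept their direction, 27 took the other sign and 0 passed an adjusted p of 0.05. The smallest limma adjusted p was 0.233, for Pdgfd on day 3 after quantile normalization. A changed filter, the replicate block and the joint fit leave the estimate itself unchanged, and the block repeats the value with the GC trend removed. Directions kept under these settings were fixed in advance, so the 239 overstate how stable the directions were. Undoing the divisor, fitting reads with voom, removing GC trends and combining that with the replicate block were chosen after seeing the data. Median-of-ratios rescaling moves the median of all genes on day 3 from 0.16 to -0.02. The cause of the changes of sign was not tested. On day 3 Pdgfrb was -0.12 with median-of-ratios rescaling, -0.19 with quantile normalization, -0.080 with library weights and -0.24 with the GC trend removed, with or without the replicate block, and Pdgfra was 0.017 with library weights. On day 7 Pdgfa was -0.0039 with a pseudocount of 0.1, -0.087 with median-of-ratios rescaling, -0.089 with quantile normalization, -0.079 with weights and -0.022 with voom, Pdgfb was 0.047 and Pdgfc -0.058 with weights, and Pdgfc was -0.0021 with the GC trend removed, with or without the block. The difference between days was 0.17 for Pdgfb and 0.023 for Socs3 with weights, and for Csf1r -0.17 with a pseudocount of 0.1 and -0.25 with voom. Leaving out each library in turn gave, on day 3, -0.16 to 0.22 for Pdgfrb, -0.016 to 0.72 for Pdgfa and -0.26 to 0.071 for Pdgfra. On day 7 it gave -0.31 to 0.18 for Pdgfa, -0.045 to 0.24 for Pdgfc, -0.0047 to 0.66 for Pdgfra and -0.17 to 0.63 for Nck1, and for the difference between days -0.059 to 0.32 for Pdgfrb, -0.71 to 0.022 for Pdgfa and -0.022 to 0.24 for Csf1r.

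The count over all genes moved far more. On day 3 it was 25, and 0 without a filter, 14 with median-of-ratios rescaling, 12 with quantile normalization, 369 with weights, 1016 in a joint fit of 12 libraries, 1 with the GC trend removed, 13 with voom, and 0 to 294 leaving out a library (0 without any control, 1 without laser library 3, 294 without laser library 1). On day 7 it was 38, and 13 without a filter, 24 with median-of-ratios rescaling, 114 with weights, 22 in the joint fit, 77 with the GC trend removed, 18 with voom, and 0 to 41 leaving out a library (9, 6 and 0 without controls 1, 2 and 3, 11 and 0 without laser libraries 1 and 3). The difference between days had 0, and 2 with a pseudocount of 0.1, 28 without a filter, 1119 with weights, and 0 to 3 leaving out a library. With the replicate block the count was 0 on day 3 and 53 on day 7, and 0 and 58 with the GC trend also removed. On day 7, where each pair correlated above 0.1, the block moved Pdgfa to an SE of 0.21 around 0.01 and Pdgfra to 0.22 around 0.32, and changed no call of a PDGF gene. As a hint from the data and not the design, each lasered library of day 3 correlated best, though weakly, with the control of its own number, whereas on day 7 laser library 3 correlated better with control 1 (0.205) than with control 3 (0.128). Pdgfb and Pdgfc on day 3 and Pdgfd on day 7 fell under the minimum mean, and without that filter none passed (0.090, -0.12 and 0.29, limma adjusted p = 0.671, 0.702 and 1.00).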
